A study of Homo sapiens with 24 samples.

Results

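The comparison described here set HEK293T cells that lack MIR210HG against unedited HEK293T cells, both kept at 1% oxygen for 24 h. HEK293T is an immortalised human line from embryonic kidney. The members are 8 of the 24 libraries of the series, the 4 hypoxia libraries labelled 210HG-KO (MIR210HG-KO) and the 4 hypoxia libraries labelled WT, chosen by label. The normoxia libraries of the same genotypes (21% oxygen) and the hypoxia libraries labelled MIR210-KO, with 4 libraries in each group, are used only to show where the hypoxia difference stood apart. All cells grew in high-glucose DMEM with serum, total RNA was extracted with TRIzol, and libraries came from the NEBNext Ultra RNA kit. The labels do not say whether the knockout is a clone or a pool, nor which stretch was deleted, and nothing says that the 4 libraries of a group came from separate cultures. The p-values therefore measure only the spread between these libraries, which may be technical.

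MIR210HG is a long non-coding RNA gene on the short arm of chromosome 11 whose transcript contains the hairpin of miR-210. The hypoxia-inducible factors (HIF) switch the locus on when oxygen falls, and miR-210 is known for lowering the messenger RNAs of mitochondrial and iron-sulfur proteins in hypoxic cells. Hypoxia also engages the unfolded protein response, through which the endoplasmic reticulum raises its chaperones, and the integrated stress response, in which translation slows and the transcription factor ATF4 turns on genes of amino acid supply.

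The targeted gene was checked first. MIR210HG (ENSG00000247095, chr11:565660-568457) had 0 counts in each of the 4 MIR210HG-KO libraries, against 646, 671, 765 and 712 counts in the WT libraries. Its WT level was 19.1 ± 1.72 CPM (counts scaled to a common library size with TMM factors; here and below ± after a CPM is the SD over 4 libraries). The knockout level was at least 829-fold lower, taking 3 counts over the group, or 0.0230 CPM, as the floor that a count of 0 allows; such floors cover counting error only. The precursor gene MIR210, which lies inside this region, had 0 counts in the knockout libraries, against 14, 8, 2 and 6 counts in the WT libraries. The knockout libraries thus held no read from either the host gene or the hairpin. Reads of the hairpin can come from the host transcript, so the loss of a separate hairpin transcript is not shown. Mature miR-210 itself was not measured, since the libraries were not made from small RNA. The 2 mature arms encoded by the locus are shown from RefSeq (GRCh38.p14) because the target sites examined further on are read from the seed, bases 2 to 8, which is in capitals. The 3p arm lies at chr11:568112-568133 and the 5p arm at chr11:568150-568171, both on the minus strand.
hsa-miR-210-3p: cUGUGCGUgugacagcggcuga
hsa-miR-210-5p: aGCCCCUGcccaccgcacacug

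Of 33 tested genes around the locus on chromosome 11, 9 were higher, 6 were lower and 18 were not called, with a median log2 fold change of -0.05. Here and throughout, a gene was called at an adjusted p under 0.05, and over all 19952 genes tested 24.4% were called higher and 30.2% lower, so the neighbours were not called more often than other genes. The largest changes among them were rises of CEND1, which encodes a neuronal differentiation protein, of the actin regulator EPS8L2 and of POLR2L, a small subunit shared by the nuclear RNA polymerases. CEND1 was at 1.29 ± 0.176 CPM in MIR210HG-KO cells and 0.553 ± 0.167 CPM in WT cells, a log2 fold change of 1.21 ± 0.32 (here and below ± after a log2 fold change is its standard error; adjusted p = 0.00183). EPS8L2 was at 8.93 ± 1.62 CPM in MIR210HG-KO cells and 3.97 ± 0.997 CPM in WT cells (1.17 ± 0.18), and POLR2L at 39.6 ± 5.26 CPM and 18.98 ± 4.61 CPM in the same order (1.06 ± 0.12). EPS8L2 and POLR2L overlap other transcribed genes, DEAF1 and TMEM80 for EPS8L2 and CD151 for POLR2L, and without a stated strand setting their reads cannot be separated from those of the partner. DEAF1, a transcription factor gene beside EPS8L2, fell (-0.84).

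Depth ran from 25992740 to 34586619 counts in the MIR210HG-KO libraries and from 32500812 to 37858947 in the WT libraries. The first principal component of the 8 libraries held 73.7% of the variance and separated the genotypes; the second, with 10.1%, separated WT 1 and 3 from WT 2 and 4. Long non-coding RNA genes, counted with antisense and processed transcripts, took 2.20% ± 0.0301 of counts in MIR210HG-KO libraries and 1.98% ± 0.464 in WT libraries, where WT 1 and 3 had 1.62% and 1.55% and WT 2 and 4 had 2.48% and 2.25% (exact two-sided permutation p = 0.429). Ribosomal protein genes took 7.15% ± 0.264 in MIR210HG-KO libraries and 7.87% ± 1.04 in WT libraries (exact permutation p = 0.343), again with WT 1 and 3 apart. The mitochondrial genome took 2.14% ± 0.141 in MIR210HG-KO libraries and 2.68% ± 0.227 in WT libraries, and ribosomal RNA genes 0.377% ± 0.0109 and 0.740% ± 0.0580. Both measures count the ribosomal RNA genes of the mitochondrial genome, so they are not independent. For each of the last 2 measures all 4 knockout libraries lay below all 4 WT libraries; the exact permutation p was 0.0286, the smallest that 4 against 4 can give, and 0.0714 after adjustment over the 5 measures. Of 16 blood and endothelial markers, 3 globin genes (HBA2, HBB and HBG1) had 0 counts in all 8 libraries, and the sum of the list ran from 7.29 to 8.32 CPM in MIR210HG-KO libraries and from 3.96 to 5.35 CPM in WT libraries. The 10 fibroblast markers summed to between 26.9 and 28.9 CPM in MIR210HG-KO libraries and between 25.4 and 28.6 CPM in WT libraries, with COL1A2 and FAP at 0 counts in all 8.

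**Figure D1:**
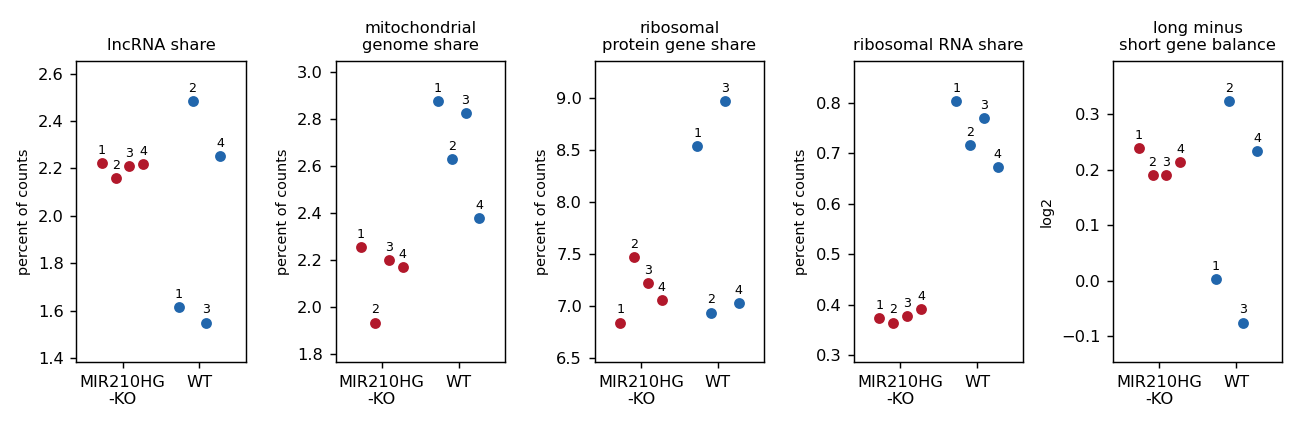
Each point is a hypoxia library, marked with its replicate number, MIR210HG-KO left of WT. The vertical axes give the share of counts in percent or, for the balance of long against short genes, a log2 difference. The knockout libraries sit close together in all 5 panels, while WT 1 and 3 lie apart from WT 2 and 4 in long non-coding RNA share, ribosomal protein share and length balance.

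In the main comparison 10886 of 19952 tested genes were called (54.6%), 4861 higher (24.4%) and 6025 lower (30.2%) in MIR210HG-KO cells. The median log2 fold change over all tested genes was -0.03, and the median of its size was 0.35. The median was 0.51 for genes called higher and -0.54 for genes called lower, so most calls were of less than 2-fold. A change of at least 2-fold was found for 976 called genes that rose (4.89%) and 1330 that fell (6.67%). All 4 knockout libraries lay above all 4 WT libraries for 4026 genes (20.2%) and below them for 4959 genes (24.9%). With WT 1 and 3 left out, 4431 genes were called higher, 3851 of them among the 4861, and 5329 lower, 4822 of them among the 6025.

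The largest rises were of genes of the cancer-testis class on chromosome X, which are normally expressed in the germ line and in some tumours. MAGEA12 (chrX:152733779-152737669), a MAGE family gene, was at 39.0, 37.4, 34.6 and 35.8 CPM in the MIR210HG-KO libraries, against 0.420, 0.3004, 0.411 and 0.189 CPM in the WT libraries. CSAG1 (chrX:152727484-152733735), its divergent neighbour, was at 17.4, 15.1, 17.0 and 14.6 CPM in the MIR210HG-KO libraries, against 0.210, 0.175, 0.0274 and 0.189 CPM in the WT libraries. Both genes were close to absent in WT cells and clearly expressed in every knockout library, with no overlap between the groups. Their log2 fold changes were 6.79 ± 0.17 (adjusted p = 1.35e-24) and 6.71 ± 0.25 (adjusted p = 2.88e-20). The starts of the 2 genes lie beside each other in opposite directions, so their promoter windows overlap; they are shown from RefSeq (GRCh38.p14, 250 bases before to 50 after the start) because the 2 genes moved together, with CG dinucleotides, the sites of DNA methylation, in capitals. The MAGEA12 window (chrX:152733507-152733806, plus strand) holds 9 CG and the CSAG1 window (chrX:152733672-152733971, minus strand) holds 16; methylation was not measured.
MAGEA12: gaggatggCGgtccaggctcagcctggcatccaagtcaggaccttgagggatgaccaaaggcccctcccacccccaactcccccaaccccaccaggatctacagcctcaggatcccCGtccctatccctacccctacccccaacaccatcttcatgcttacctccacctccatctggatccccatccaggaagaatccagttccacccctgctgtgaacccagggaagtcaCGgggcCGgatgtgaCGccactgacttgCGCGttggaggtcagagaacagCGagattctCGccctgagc
CSAG1: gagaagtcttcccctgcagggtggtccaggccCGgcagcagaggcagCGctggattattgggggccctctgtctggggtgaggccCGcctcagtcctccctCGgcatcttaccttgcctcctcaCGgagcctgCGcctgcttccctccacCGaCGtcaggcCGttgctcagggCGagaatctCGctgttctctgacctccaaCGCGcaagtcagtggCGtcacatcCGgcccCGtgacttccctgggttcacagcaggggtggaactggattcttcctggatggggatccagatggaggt

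Other cancer-testis genes did not share one direction. Of 38 listed, 14 passed the filter on low counts, and 7 of these were higher, 4 lower and 3 not called. CSAG3 rose to 5.20 ± 0.288 CPM in MIR210HG-KO cells, against 1.46 ± 0.194 CPM in WT cells (1.83 ± 0.20), and MAGEA2 (1.40), MAGEA2B (1.94) and MAGEC1 (1.37) also rose. MAGEA10 had 24 counts over the 4 knockout libraries and 2 over the 4 WT libraries, a ratio of WT to knockout of 0.0739 in CPM (95% counting interval 0.00846 to 0.297), and 1 knockout library was at 0. MAGEC2 (-2.80), MAGEA6 (-2.62), MAGEA3 (-1.83) and MAGEB2 (-1.23) fell. Several of these genes are near-identical copies (MAGEA2 with MAGEA2B, MAGEA3 with MAGEA6, and the CSAG genes), so the split of reads between copies is uncertain.

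Among the other protein-coding genes with the largest rises were 2 zinc finger genes of chromosome 19, a cartilage collagen and a transcription factor of blood cells. RUNX3 was at 11.6, 11.7, 13.7 and 10.4 CPM in the MIR210HG-KO libraries, against 2.37, 2.38, 2.17 and 3.96 CPM in the WT libraries (2.12 ± 0.17, adjusted p = 2.37e-12). The groups did not overlap, and WT 4 was the highest WT library. ZNF682 was at 7.57 ± 0.731 CPM in MIR210HG-KO cells and 0.742 ± 0.228 CPM in WT cells (3.34 ± 0.19), and ZIK1, which overlaps ZNF416, at 5.83 ± 0.498 CPM and 1.07 ± 0.260 CPM in the same order (2.43 ± 0.18). HCLS1, an actin-binding protein of blood cells (2.42 ± 0.18), DOK3, an adaptor of immune receptors (2.09 ± 0.10), QRICH2 (2.03 ± 0.13) and FAM84B (1.82 ± 0.05) also rose. FAM84B was by far the most abundant of these 4, at 168 ± 4.07 CPM in MIR210HG-KO cells and 47.5 ± 1.01 CPM in WT cells.

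The largest falls ended in near absence. TMEM178B (chr7:141074232-141480380), a membrane protein gene, was at 0.359, 0.140, 0.295 and 0.320 CPM in the MIR210HG-KO libraries, against 36.9, 48.4, 34.6 and 46.6 CPM in the WT libraries (-7.18 ± 0.16, adjusted p = 8.79e-26). MFAP2, a microfibril protein gene, had 0, 0, 2 and 2 counts in the knockout libraries, against 162, 182, 233 and 126 counts in the WT libraries, a ratio of WT to knockout of 156 in CPM (95% counting interval 60.6 to 573). Both genes were thus readily detected in WT cells and at or near the detection limit in every knockout library. OSR1, a transcription factor gene of early kidney, had 0 counts over the knockout libraries and 116 over the WT libraries, at 0.789 ± 0.0946 CPM in WT cells, and was at least 34.3-fold lower.

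DDR2, a receptor tyrosine kinase for collagen, was among the most abundant genes with large falls. It was at 30.6, 33.1, 29.7 and 32.3 CPM in the MIR210HG-KO libraries, against 275, 356, 278 and 337 CPM in the WT libraries (-3.31 ± 0.07, adjusted p = 8.79e-26). TENM1, a teneurin that overlaps STAG2, was at 6.52 ± 0.540 CPM in MIR210HG-KO cells and 66.8 ± 16.2 CPM in WT cells (-3.36 ± 0.12). CALCB, a neuropeptide gene of the calcitonin family, was at 3.18 ± 0.464 CPM in MIR210HG-KO cells and 33.2 ± 4.70 CPM in WT cells (-3.39 ± 0.11). None of these 3 genes overlapped between the groups. SH2D3C, a signalling adaptor (-3.78 ± 0.17), TNFRSF9, a co-stimulatory receptor (-3.30 ± 0.30), and PCK1, the cytosolic rate-limiting enzyme of gluconeogenesis (-3.11 ± 0.17), also fell, with no overlap between the groups. NUPR1, BMP2, INHBE and AKNA, also among the largest falls, are described with their groups.

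Among long non-coding RNA genes, NRAV rose the most, to 22.2, 22.5, 22.6 and 22.4 CPM in the MIR210HG-KO libraries, against 3.18, 4.51, 4.00 and 4.71 CPM in the WT libraries (2.44 ± 0.10, adjusted p = 2.92e-19). It overlaps DYNLL1. LINC01234 (1.81 ± 0.08), ERVK9-11 (1.77 ± 0.17) and AC112220.2 (1.61 ± 0.13), which overlaps PDCD6IP, followed. After MIR210HG, the largest fall was of LINC02381, at 0.801, 0.874, 0.779 and 0.569 CPM in the MIR210HG-KO libraries, against 21.9, 17.6, 22.3 and 21.2 CPM in the WT libraries (-4.76 ± 0.13, adjusted p = 6.40e-24). It overlaps SMUG1. VLDLR-AS1, antisense to VLDLR, was at 0.855 ± 0.170 CPM in MIR210HG-KO cells and 5.74 ± 0.278 CPM in WT cells (-2.73 ± 0.20), and CYTOR at 1.84 ± 0.136 CPM and 11.5 ± 1.13 CPM in the same order (-2.64 ± 0.12).

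**Figure D2:**
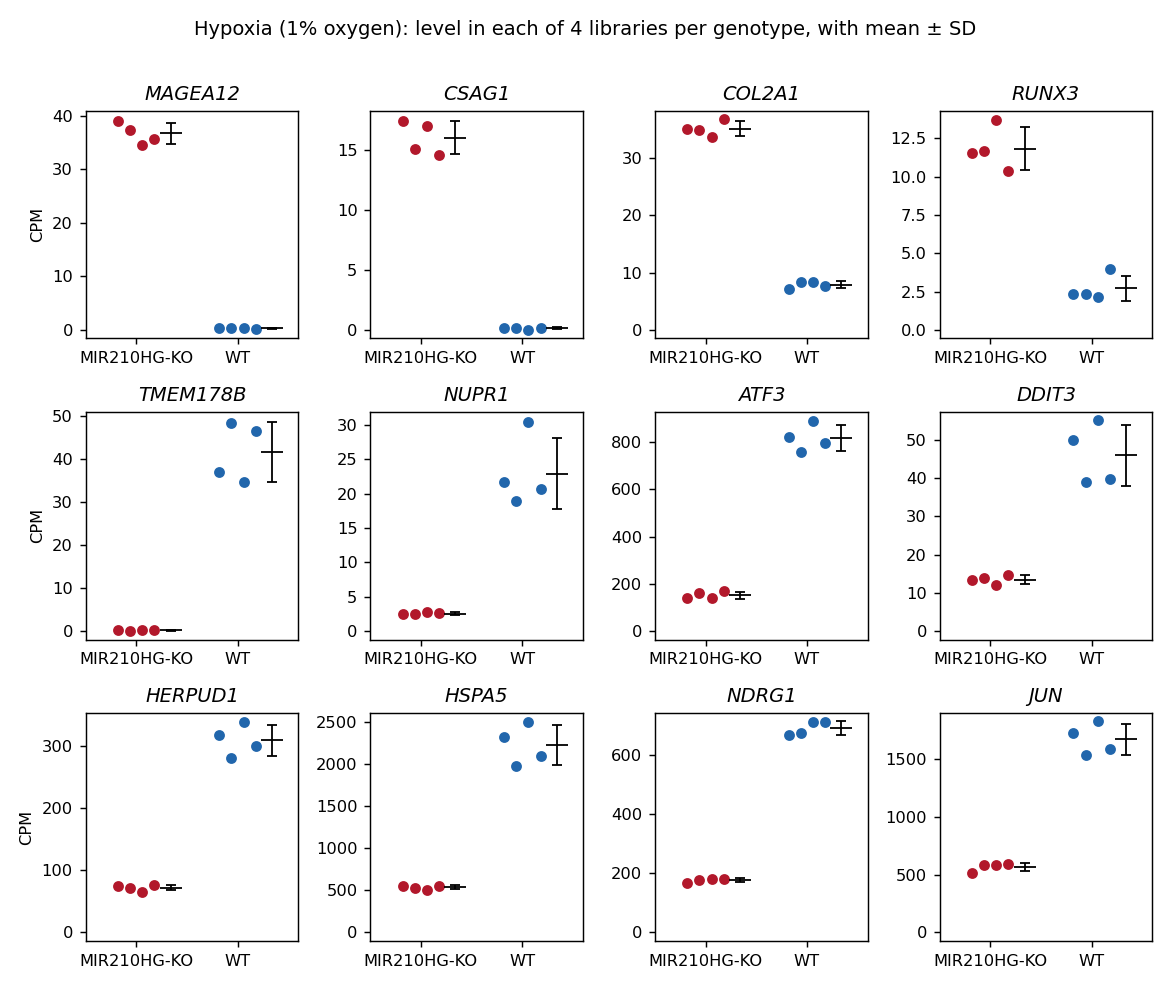
Each panel shows the hypoxia level of a gene in CPM on a linear axis, with a point per library, MIR210HG-KO left of WT, and the mean and SD of 4 libraries beside the points. The 4 knockout libraries lie above all 4 WT libraries for MAGEA12, CSAG1, COL2A1 and RUNX3, and below all 4 for TMEM178B, NUPR1, ATF3, DDIT3, HERPUD1, HSPA5, NDRG1 and JUN.

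The integrated stress response was lower almost throughout the list of its target genes. Of 41 genes, 39 fell, 1 rose and 1 was not called, and the median log2 fold change was -0.95, against -0.03 over all genes tested. ATF4 itself, the transcription factor at the centre of the pathway, which is mainly controlled at translation, was at 653, 664, 675 and 709 CPM in the MIR210HG-KO libraries, against 1064, 911, 1204 and 925 CPM in the WT libraries. That was a fall of 0.60 ± 0.06 on the log2 scale (adjusted p = 8.61e-10), with no overlap between the groups. DDIT3, which encodes the pro-apoptotic factor CHOP, was at 13.3, 14.02, 12.1 and 14.6 CPM in the MIR210HG-KO libraries, against 49.9, 39.1, 55.1 and 39.7 CPM in the WT libraries (-1.77 ± 0.10, adjusted p = 1.19e-15); it overlaps MARS and MBD6. ATF3 (chr1:212565334-212620777), a stress-induced transcription factor, was at 139, 160, 142 and 170 CPM in the MIR210HG-KO libraries, against 820, 759, 890 and 798 CPM in the WT libraries (-2.42 ± 0.07, adjusted p = 3.96e-23). WT 1 and 3 held the higher WT values of ATF4, DDIT3 and ATF3, and still every WT library exceeded every knockout library. The largest falls in the list were of FGF21, a secreted metabolic hormone, at 0.273 ± 0.121 CPM in MIR210HG-KO cells and 3.51 ± 0.556 CPM in WT cells (-3.62 ± 0.39), of NUPR1, a stress-induced chromatin protein, at 2.57 ± 0.161 CPM and 22.9 ± 5.16 CPM in the same order (-3.15 ± 0.14), and of AKNA (-2.94 ± 0.10). TRIB3, a pseudokinase that restrains AKT (-2.09), PPP1R15A, which recruits the phosphatase that ends the response (-1.98), and SESN2, a regulator of growth signalling (-1.18), fell with them. TXNIP, an inhibitor of thioredoxin, was the member that rose (0.38), and SLC38A2, a neutral amino acid transporter, was not called (-0.03).

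Genes of amino acid supply fell in the same comparison. Of 17 amino acid transporters, 13 fell, 2 rose and 2 were not called (median -0.69). SLC43A1 (-1.31 ± 0.07), SLC1A4 (-1.25 ± 0.07) and SLC3A2 (-0.95 ± 0.07), the heavy chain shared by several exchangers, changed the most. SLC3A2 was at 168 ± 11.4 CPM in MIR210HG-KO cells and 325 ± 37.5 CPM in WT cells. Of 16 genes of serine and one-carbon metabolism, 11 fell, 4 rose and 1 was not called (median -0.51). GLDC, the glycine-cleaving decarboxylase, was at 7.49 ± 0.946 CPM in MIR210HG-KO cells and 35.8 ± 1.56 CPM in WT cells (-2.25 ± 0.08), and ASNS, asparagine synthetase, at 12.99 ± 1.28 CPM and 39.1 ± 6.83 CPM in the same order (-1.59 ± 0.10). ALDH1L2, the mitochondrial folate enzyme, fell by 1.23 ± 0.08 on the log2 scale. ASNS overlaps AC005326.1 and ALDH1L2 overlaps C12orf45. Members that rose included TYMS, thymidylate synthase (0.24), and the cytosolic folate enzyme MTHFD1 (0.13).

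Cytosolic aminoacyl-tRNA synthetases, which charge tRNAs with amino acids, were lower as well: 16 of 20 fell, 1 rose (QARS, 0.25) and 3 were not called (median -0.66). SARS, the seryl-tRNA synthetase, was at 195, 206, 196 and 199 CPM in the MIR210HG-KO libraries, against 505, 435, 560 and 433 CPM in the WT libraries (-1.28 ± 0.06, adjusted p = 1.58e-17). YARS (-1.15 ± 0.06), which overlaps S100PBP, and GARS (-1.09 ± 0.06) followed. Lists of the integrated stress response, transporters and serine metabolism share members such as ASNS, SLC3A2 and PHGDH, so their counts are not independent.

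The promoters of these groups were searched for TGATGNAA, the composite element read by ATF4 with C/EBP proteins, on both strands. It was present in 6 of 33 promoters of the integrated stress response list (18.2%) and 6 of 16 of the synthetase list (37.5%), against 1.71% of 13009 promoters of tested genes and 3.67% of all 27282 RefSeq promoters. Among tested genes the element was in 35 of 782 promoters of genes that fell at least 2-fold (4.48%) and 6 of 417 of genes that rose at least 2-fold (1.44%). Such a match describes the letters in the window and is not a measured site. The list shares count members whatever their change, so they describe the lists and not the knockout. Windows around the match are shown for 4 stress genes and 3 synthetases, 5′ to 3′ on the strand of the gene, with the fixed letters of the motif or of its reverse complement in capitals (RefSeq, GRCh38.p14). In ASNS (chr7:97872458-97872487, minus strand) and ATF3 (chr1:212565205-212565234, plus strand) the motif reads forward. In FGF21 (chr19:48755459-48755488, plus strand), CHAC1 (chr15:40953251-40953280, plus strand), AARS (chr16:70289675-70289704, minus strand), IARS (chr9:92293692-92293721, minus strand) and MARS (chr12:57488053-57488082, plus strand) it reads on the other strand.
ASNS: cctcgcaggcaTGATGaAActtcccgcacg
ATF3: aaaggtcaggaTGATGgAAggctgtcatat
FGF21: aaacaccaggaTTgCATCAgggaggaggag
CHAC1: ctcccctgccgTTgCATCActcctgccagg
AARS: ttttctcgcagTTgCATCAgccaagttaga
IARS: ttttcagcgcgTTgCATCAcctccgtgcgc
MARS: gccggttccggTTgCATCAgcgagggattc

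Genes of the unfolded protein response fell in hypoxia, where most differed from WT more than in normoxia. Of 36 genes, 28 fell, 2 rose and 6 were not called (median -0.48). HSPA5 (chr9:125234853-125241330), the chaperone BiP and main sensor partner of the endoplasmic reticulum, was at 553, 533, 509 and 555 CPM in the MIR210HG-KO libraries, against 2317, 1978, 2504 and 2101 CPM in the WT libraries. The 4 knockout libraries lay within a narrow band far below the lowest WT library, and the fall was 2.05 ± 0.06 on the log2 scale (adjusted p = 2.79e-23). In normoxia HSPA5 was at 525 ± 15.1 CPM in MIR210HG-KO cells and 511 ± 28.8 CPM in WT cells, a log2 fold change of 0.04 (adjusted p = 0.644). The difference between the hypoxia and the normoxia log2 fold change, tested in the same model as an interaction, was -2.09 ± 0.08 (adjusted p = 2.26e-18). The knockout level of HSPA5 was thus similar at the 2 oxygen levels, whereas the WT level was several-fold higher in hypoxia. Since each oxygen level was deposited as its own table, oxygen and table cannot be told apart, in this and every other interaction.

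In the interaction 27 of 36 members were called lower and 0 higher, against 12.2% lower and 10.2% higher over all genes tested, and in normoxia 8 were higher, 7 lower and the median was 0.02. HERPUD1, which serves the degradation of misfolded proteins, was at 74.4, 72.0, 65.5 and 75.8 CPM in the MIR210HG-KO libraries, against 317, 280, 338 and 299 CPM in the WT libraries (-2.10 ± 0.07, adjusted p = 2.52e-22; interaction -1.30). XBP1, the transcription factor activated by splicing of its messenger RNA, was at 131, 135, 129 and 145 CPM in the MIR210HG-KO libraries, against 403, 348, 422 and 368 CPM in the WT libraries (-1.52 ± 0.06, adjusted p = 1.33e-19; interaction -0.79). Neither gene overlapped between the groups, and both were also called lower in normoxia (-0.81 for HERPUD1 and -0.73 for XBP1). The co-chaperone DNAJB9 (-1.46), the disulfide isomerase PDIA4 (-1.24), the kinase EIF2AK3, known as PERK (-0.97), and the secreted protein MANF (-0.73) also fell, and each was called lower in the interaction. SEL1L, an adaptor of the degradation complex, rose (0.18) and had risen further in normoxia, so that its interaction was lower (-0.43). WFS1 rose (0.32), and CALR, PDIA3, CRELD2, CRELD1, DERL1 and DERL2 were not called.

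The ER stress element, CCAAT and CCACG separated by 9 bases of any kind, was searched in the same promoters on both strands. It was found in 7 of 33 promoters of the unfolded protein response list (21.2%), against 0.123% of promoters of tested genes and 22 of all 27282 promoters (0.0806%). A list of known pathway genes can hold such elements by its making, so this share describes the list and not the knockout. The 7 genes were HSPA5, XBP1, SERP1, CANX, HSP90B1, CALR and CRELD2. HSPA5, XBP1, SERP1, CANX and HSP90B1 fell, and CALR and CRELD2 were not called. The promoter of HSPA5 is given whole (chr9:125241294-125241593, minus strand; RefSeq, GRCh38.p14) because that gene lost the most CPM in this group and had the lowest interaction in it, and shorter windows are given for XBP1 (chr22:28800598-28800626, minus strand), CANX (chr5:179698773-179698801, plus strand), HSP90B1 (chr12:103930211-103930239, plus strand) and CALR (chr19:12938379-12938407, plus strand). Capitals mark the fixed letters of the element, which reads on the other strand in CALR.
HSPA5: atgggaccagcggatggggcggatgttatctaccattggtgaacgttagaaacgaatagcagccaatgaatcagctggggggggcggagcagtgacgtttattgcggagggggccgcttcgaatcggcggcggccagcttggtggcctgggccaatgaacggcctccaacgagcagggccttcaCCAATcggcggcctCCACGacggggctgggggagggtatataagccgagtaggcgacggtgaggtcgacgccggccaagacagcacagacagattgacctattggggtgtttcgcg
XBP1: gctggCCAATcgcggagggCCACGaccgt
CANX: cccggCCAATcttcacactCCACGaagaa
HSP90B1: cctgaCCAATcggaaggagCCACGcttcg
CALR: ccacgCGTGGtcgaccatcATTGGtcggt

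Most targets of the integrated stress response, by contrast, were already lower in normoxia, where 38 of 41 fell and 0 rose (median -0.96), against 19.6% lower over all genes tested. In the interaction 12 members were called higher and 12 lower. CHAC1, a glutathione-degrading enzyme, was at 10.1, 12.9, 12.8 and 13.6 CPM in the MIR210HG-KO hypoxia libraries, against 32.2, 25.6, 34.8 and 31.7 CPM in the WT hypoxia libraries (-1.34 ± 0.10, adjusted p = 6.89e-13). In normoxia CHAC1 was at 3.50 ± 0.333 CPM in MIR210HG-KO cells and 42.6 ± 5.32 CPM in WT cells, so its difference was smaller in hypoxia (interaction 2.27, adjusted p = 4.53e-12). PPP1R15A (interaction -1.85), GDF15, a secreted stress factor (-1.39), and TRIB3 (-1.37) went the other way, with a larger fall in hypoxia. Of the synthetases, 15 of 20 were called lower in the interaction and 0 higher.

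**Figure D3:**
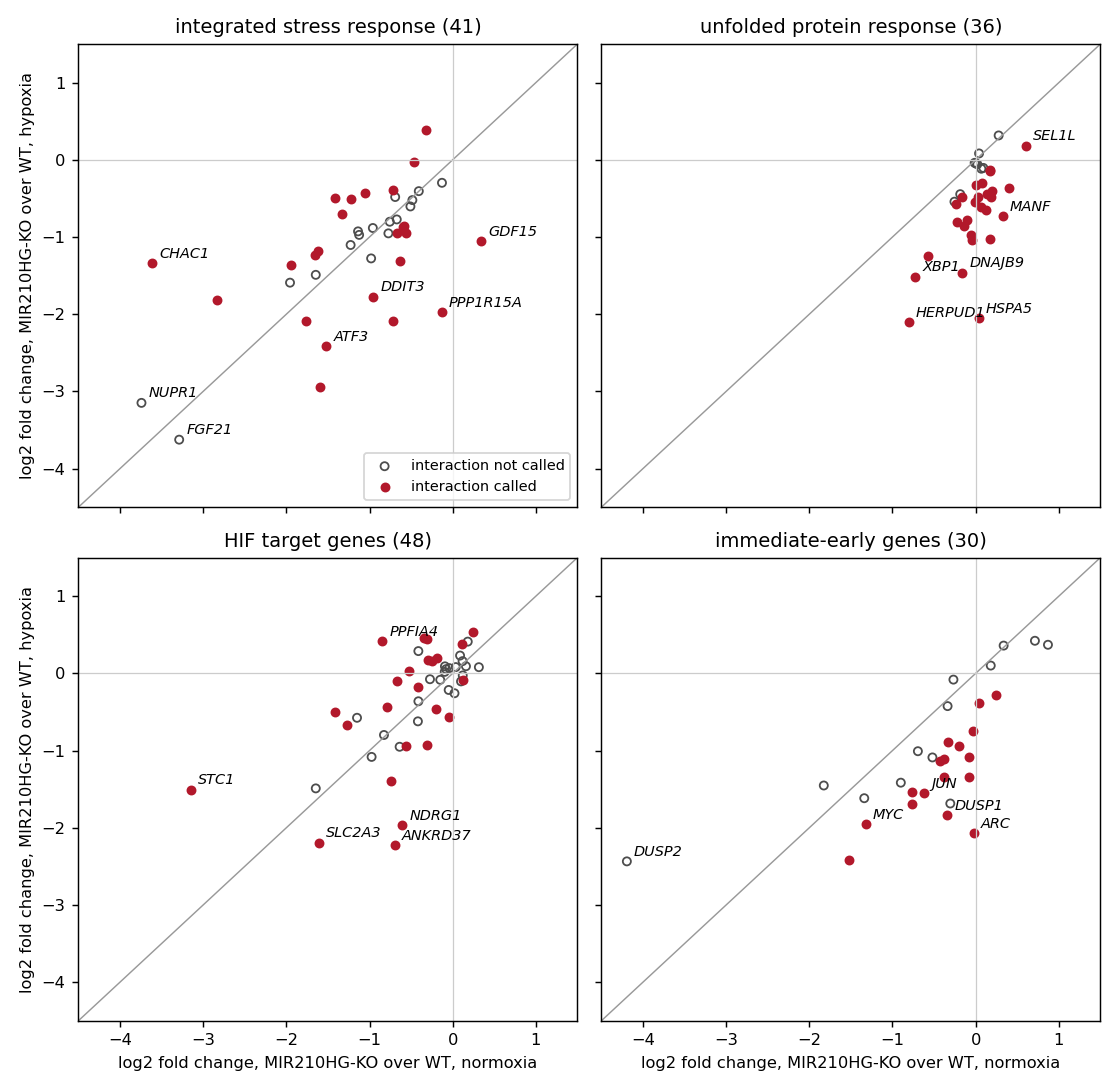
Each point is a gene of 4 lists, with the log2 fold change of MIR210HG-KO over WT in hypoxia on the vertical axis and in normoxia on the horizontal axis; filled points were called in the interaction and the diagonal marks equal change. Most points of the unfolded protein response hang below the diagonal, many of them near 0 in normoxia. HSPA5 was at -2.05 in hypoxia and 0.04 in normoxia, whereas HERPUD1 (-0.81) and XBP1 (-0.73) were also lower in normoxia. Points of the integrated stress response scatter along the diagonal.

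Immediate-early genes, which respond to growth factors and stress within minutes, were lower. Of 30 genes, 25 fell, 2 rose and 3 were not called (median -1.12). JUN was at 518, 581, 585 and 591 CPM in the MIR210HG-KO libraries, against 1726, 1535, 1832 and 1587 CPM in the WT libraries (-1.55 ± 0.07, adjusted p = 1.07e-18), a loss among the 5 largest of the comparison in CPM. The JUN partner FOS (-1.70), the transcription factors MYC (-1.95) and EGR1 (-1.34), and the MAP kinase phosphatases DUSP1 (-1.84) and DUSP6 (-1.69) fell, as did ARC, a synaptic regulator, at 1.51 ± 0.321 CPM in MIR210HG-KO cells and 6.36 ± 1.87 CPM in WT cells (-2.07 ± 0.20). DUSP2 fell the most (-2.44 ± 0.43), with every library of either genotype under 1 CPM. SRF (0.36) and CTGF (0.37) rose. In the interaction 17 of the 30 were called lower and 0 higher; for ARC, whose normoxia log2 fold change was -0.02, it was -2.05. This list and that of the integrated stress response share ATF3.

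Of 30 p53 target genes, 13 fell, 6 rose and 11 were not called (median -0.12). The receptor gene EDA2R, at 7.15 ± 0.673 CPM in MIR210HG-KO cells and 36.6 ± 4.86 CPM in WT cells (-2.35 ± 0.09), the growth arrest gene GADD45A (-1.88 ± 0.08) and the pro-apoptotic BBC3 (-1.71 ± 0.10) changed the most. CDKN1A, the cell cycle inhibitor p21, fell by 0.29 on the log2 scale, whereas MDM2, which marks p53 for degradation, rose by 0.19. Among 21 heat shock genes 9 fell and 5 rose. The small chaperones HSPB8, at 3.78 ± 1.24 CPM in MIR210HG-KO cells and 15.2 ± 1.57 CPM in WT cells (-2.02 ± 0.16), and CRYAB (-1.87 ± 0.35), which overlaps HSPB2, fell, and the abundant cytosolic chaperones HSPA8 (1.01 ± 0.06) and HSP90AA1 (0.87 ± 0.06) rose. HSPA8 was at 1009 ± 57.4 CPM in MIR210HG-KO cells and 502 ± 66.7 CPM in WT cells. Among 20 targets of NRF2, the factor of the oxidative stress response, 7 fell and 4 rose. HMOX1, heme oxygenase, was at 13.4, 14.9, 12.5 and 15.0 CPM in the MIR210HG-KO libraries, against 54.4, 44.4, 58.0 and 54.7 CPM in the WT libraries (-1.92 ± 0.08, adjusted p = 1.14e-19), and had been at 26.4 ± 0.887 CPM in MIR210HG-KO cells and 25.5 ± 0.554 CPM in WT cells in normoxia (interaction -1.97). OSGIN1 (-2.21 ± 0.50), which overlaps AC009119.2, and ME1 (-0.79 ± 0.07) fell too.

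HIF target genes split by gene. Of 48 tested out of 50 listed, 20 fell, 11 rose and 17 were not called, and the median was -0.10. In normoxia more of the list was lower: 28 fell, 4 rose and 16 were not called (median -0.30). Over all genes tested in normoxia, 19.6% were lower and 15.6% higher. HIF1A (chr14:61695513-61748259), the oxygen-sensitive subunit, was at 157, 150, 143 and 141 CPM in the MIR210HG-KO libraries, against 89.4, 95.6, 76.4 and 90.4 CPM in the WT libraries (0.75 ± 0.06, adjusted p = 3.14e-12). EPAS1, which encodes HIF-2alpha, was at 34.2, 33.8, 32.8 and 30.5 CPM in the MIR210HG-KO libraries, against 51.9, 54.1, 49.4 and 52.7 CPM in the WT libraries (-0.66 ± 0.06, adjusted p = 1.46e-11). The 2 subunit genes thus differed in opposite directions without overlap, as they did in normoxia (0.91 for HIF1A and -0.74 for EPAS1). NDRG1 (chr8:133237171-133302022), a hypoxia-induced differentiation gene, was at 167, 177, 183 and 182 CPM in the MIR210HG-KO libraries, against 669, 677, 712 and 713 CPM in the WT libraries (-1.97 ± 0.06, adjusted p = 2.07e-22). VEGFA, the angiogenic growth factor, was at 166, 194, 186 and 178 CPM in the MIR210HG-KO libraries, against 340, 355, 334 and 362 CPM in the WT libraries (-0.94 ± 0.05, adjusted p = 5.99e-16). Both were well below the WT range in every knockout library, and both fell more than in normoxia (interaction -1.35 for NDRG1 and -0.38 for VEGFA). ANKRD37 (-2.23 ± 0.12), which overlaps UFSP2, the glucose transporter SLC2A3 (-2.20 ± 0.10), DDIT4, an inhibitor of mTOR (-1.49), and adrenomedullin, ADM (-0.95), also fell.

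On the other side, the mitophagy receptor BNIP3 was at 334, 359, 338 and 337 CPM in the MIR210HG-KO libraries, against 319, 282, 312 and 284 CPM in the WT libraries (0.19 ± 0.06, adjusted p = 0.00463), a small rise without overlap. The prolyl hydroxylase EGLN3 (0.54), which marks HIF for degradation, the kinase-phosphatase PFKFB4 (0.46), the lysyl oxidase LOXL2 (0.45) and the glycolytic enzyme TPI1 (0.38) rose. LDHA (-0.08), PDK1 (0.03) and KDM3A (-0.09) were not called. STC1, a secreted glycoprotein, was at 5.61 ± 0.704 CPM in MIR210HG-KO cells and 15.9 ± 1.24 CPM in WT cells (-1.51 ± 0.12); in normoxia, with 18 counts over the knockout libraries, the difference was larger and the interaction was 1.64. In the whole list 15 members were called higher and 9 lower in the interaction. Among 40 list members with a RefSeq promoter, the hypoxia element core ACGTG was present in 22 (55%) and GCGTG in 24 (60%), against 25.9% and 49.5% of promoters of tested genes, counting both strands. These shares describe a list of known targets and not the effect of the knockout.

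Glycolysis genes did not move as a group in hypoxia: of 26, 9 rose, 8 fell and 9 were not called (median 0.03). In normoxia 13 fell, 0 rose and 13 were not called (median -0.12). The interaction was called higher for 12 and lower for 3. The isoforms that fell the most were SLC2A3, at 20.6 ± 0.193 CPM in MIR210HG-KO cells and 94.5 ± 3.81 CPM in WT cells, the neuronal enolase ENO2, which overlaps LRRC23, at 26.5 ± 0.584 CPM and 74.7 ± 1.95 CPM in the same order (-1.50 ± 0.06), and the hexokinase HK2, at 256 ± 9.06 CPM and 670 ± 65.7 CPM (-1.39 ± 0.07). Those that rose were smaller changes, of PDK3 (0.61), PFKFB4 (0.46), PFKL (0.42), TPI1 (0.38) and PKM (0.37). PKM, pyruvate kinase, gained the most CPM among them, at 2314 ± 101 CPM in MIR210HG-KO cells and 1796 ± 141 CPM in WT cells. GAPDH (-0.05), ENO1 (0.02) and GPI (0.05) were not called.

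Cholesterol synthesis genes rose. Of 24 tested, 20 rose, 2 fell and 2 were not called (median 0.36), and 13 were called higher in the interaction and 0 lower. LSS, lanosterol synthase, was at 172 ± 6.87 CPM in MIR210HG-KO cells and 96.95 ± 1.11 CPM in WT cells (0.83 ± 0.07, adjusted p = 4.09e-12; interaction 0.62). SQLE, squalene epoxidase, was at 393 ± 9.26 CPM in MIR210HG-KO cells and 257 ± 7.75 CPM in WT cells (0.61 ± 0.05; interaction 0.46). HMGCS1, an early enzyme of the pathway, was at 339 ± 21.8 CPM in MIR210HG-KO cells and 214 ± 10.6 CPM in WT cells (0.66 ± 0.05; interaction 0.25). All 4 knockout libraries lay above all 4 WT libraries for each of these genes, as they did for MVK, mevalonate kinase (0.73). INSIG1, the sterol-dependent retainer of the SREBP complex, fell (-0.73), with IDI1 (-0.21). Fatty acid genes were mixed: of 16, 5 rose, 5 fell and 6 were not called. ACSL3 (0.50 ± 0.05), the desaturase SCD (0.34) and FASN (0.25) rose, and ACSL1 (-0.93 ± 0.05) and ME1 fell.

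Of 24 tested collagen genes, 15 rose, 4 fell and 5 were not called (median 0.32), and 12 were called higher in the interaction and 0 lower. COL4A2 (chr13:110305812-110513209) was at 154, 155, 168 and 156 CPM in the MIR210HG-KO libraries, against 47.3, 48.2, 49.2 and 55.2 CPM in the WT libraries (1.67 ± 0.07, adjusted p = 9.25e-19). COL4A1 (chr13:110148963-110307233), which shares its promoter region with COL4A2 and encodes the other main chain of basement membranes, was at 72.8, 75.8, 77.6 and 78.4 CPM in the MIR210HG-KO libraries, against 24.3, 27.4, 28.8 and 28.6 CPM in the WT libraries (1.48 ± 0.06, adjusted p = 1.42e-19). The annotated ends of the 2 genes overlap, so some reads may be shared. COL2A1, the cartilage collagen, was at 35.0 ± 1.27 CPM in MIR210HG-KO cells and 7.89 ± 0.6002 CPM in WT cells (2.15 ± 0.09). COL5A1 (1.33), COL7A1 (0.98) and COL18A1 (0.84) rose, and COL9A2 (-0.89), COL9A3 (-0.62), COL26A1 (-0.35) and COL1A1 (-0.34) fell. COL3A1, also a fibroblast marker, was at 10.0 ± 0.349 CPM in MIR210HG-KO cells and 4.93 ± 0.541 CPM in WT cells (1.02 ± 0.10); the other fibroblast markers tested were PDGFRA (0.55 ± 0.20), PDGFRB (-0.90 ± 0.37), COL1A1, LUM and POSTN, of which the last 2 were not called. The PDGFRA call was lost without WT 1 (0.39) or WT 4 (0.50), and the PDGFRB call without MIR210HG-KO 1, 2 or 4 or WT 1 or 3, where it ran from -0.92 to -0.68. The part of other cell types in the collagen result was not tested.

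Established targets of miR-210 showed no common direction. Of 28 listed, 8 rose, 9 fell and 11 were not called, and the median was -0.04. ISCU, the iron-sulfur scaffold, was at 46.7, 55.6, 48.8 and 45.8 CPM in the MIR210HG-KO libraries, against 52.5, 47.2, 54.2 and 46.3 CPM in the WT libraries (-0.02 ± 0.06, adjusted p = 0.751). GPD1L, a regulator of HIF stability, was at 48.0, 46.4, 46.7 and 47.8 CPM in the MIR210HG-KO libraries, against 49.0, 49.0, 55.2 and 50.1 CPM in the WT libraries (-0.11 ± 0.05, adjusted p = 0.0818). EFNA3, an ephrin, was at 9.84, 11.2, 11.4 and 11.0 CPM in the MIR210HG-KO libraries, against 12.5, 11.7, 13.4 and 9.51 CPM in the WT libraries (-0.12 ± 0.10, adjusted p = 0.349). None of these 3 targets passed the test, and ISCU and EFNA3 overlapped between the groups; the direction for ISCU changed sign in several other fits. NPTX1, a secreted pentraxin, rose by 0.16 ± 0.07 on the log2 scale (adjusted p = 0.0416), with levels of 36.5 ± 1.63 CPM in MIR210HG-KO cells and 32.7 ± 2.86 CPM in WT cells that overlapped. It was not called with WT 1 and 3 both left out (0.13), nor with MIR210HG-KO 1, 3 or 4 or WT 1 or 2 left out, where it ran from 0.10 to 0.17, and with a replicate block its adjusted p was 0.0502. The largest rise was of the succinic semialdehyde dehydrogenase ALDH5A1 (0.60), and the largest falls were of BDNF, at 0.248 ± 0.131 CPM in MIR210HG-KO cells and 1.03 ± 0.328 CPM in WT cells (-2.02 ± 0.35), CPEB2 (-1.01 ± 0.10) and COX10 (-0.71 ± 0.07). BDNF overlaps its antisense gene BDNF-AS.

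Sites for the miR-210-3p seed were counted in the 3′ untranslated region of 1 transcript per gene. A site was 7 bases, ACGCACA (the complement of the seed) or CGCACAA (the complement of bases 2 to 7 followed by A), and an 8-base site held both. Of 512 tested genes with a site, 168 were higher (32.8%) and 168 lower (32.8%), and the median log2 fold change was 0.01. Of 13710 tested genes without a site, 26.3% were higher and 34.9% lower, with a median of -0.05. Genes with a site had longer untranslated regions, with a median of 2607 bases against 940 bases. Among genes whose untranslated region lay within the quartiles of the site genes, 34.8% of 256 with a site and 32.1% of 4178 without were higher, and 35.2% and 32% were lower. The 71 genes with an 8-base site included 30 higher (42.3%) and 17 lower (23.9%), with a median of 0.15, and 0.06 in normoxia. These shares were not tested.

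Genes of the activin and BMP pathway mostly fell. Of 21 tested genes, 11 fell, 5 rose and 5 were not called (median -0.41). BMP2 was at 1.85, 3.11, 2.12 and 2.46 CPM in the MIR210HG-KO libraries, against 18.5, 20.03, 20.2 and 22.2 CPM in the WT libraries (-3.10 ± 0.14, adjusted p = 4.79e-18). INHBE, an activin subunit and stress target, was at 1.58 ± 0.284 CPM in MIR210HG-KO cells and 12.4 ± 0.630 CPM in WT cells (-2.99 ± 0.15), and INHBA at 2.47 ± 0.640 CPM and 7.48 ± 0.941 CPM in the same order (-1.61 ± 0.19). The BMP-induced regulators ID1 (-0.87), ID2 (-0.93) and ID3 (-1.005) and the secreted inhibitors FST (-0.997) and NOG (-0.92) fell, whereas INHBB (1.47), SMAD6, an intracellular inhibitor (0.999), and BMP4 (0.51) rose.

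In the Notch pathway 3 of 4 receptors rose, and most ligands and target genes fell. Of 19 genes, 7 rose and 10 fell (median -0.29). The receptors NOTCH1 (0.62), NOTCH2 (0.78) and NOTCH3 (0.91) and the glycosyltransferases MFNG (0.99) and LFNG (0.69), which modify them, rose. The ligand DLL4, at 0.654 ± 0.252 CPM in MIR210HG-KO cells and 2.92 ± 0.646 CPM in WT cells (-2.12 ± 0.22), the ligands DLL1 (-0.52) and JAG1 (-0.29), and the target transcription factors HES1 (-1.08), HES4 (-1.24 ± 0.11), HEY1 (-0.57) and HEY2 (-1.03) fell. HES4 was at 44.5 ± 4.78 CPM in MIR210HG-KO cells and 105 ± 17.9 CPM in WT cells. HES5 fell (-2.44 ± 0.61), with 7 counts over the knockout libraries and 45 over the WT libraries; it overlaps AL139246.5. HEYL (0.37) and the feedback inhibitor NRARP (0.22) rose.

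Genes that mark the HEK293 lineage were lower but not absent. Of 10, 8 fell and 2, EPCAM and KRT8, were not called (median -0.76), and their sum ran from 434 to 451 CPM in MIR210HG-KO libraries and from 882 to 1118 CPM in WT libraries. The neurofilament genes, known to be expressed in HEK293 cells, made up much of it. NEFM was at 53.03, 44.1, 50.6 and 56.9 CPM in the MIR210HG-KO libraries, against 217, 222, 290 and 202 CPM in the WT libraries (-2.19 ± 0.09, adjusted p = 3.39e-19), and NEFL was at 84.4 ± 3.33 CPM in MIR210HG-KO cells and 231 ± 11.4 CPM in WT cells (-1.45 ± 0.05). The transcription factors GATA3 (-2.17 ± 0.10) and PAX2 (-1.41 ± 0.15), both known from the developing kidney, and vimentin, VIM (-0.81), fell. Of 21 tested nephron and kidney genes, 10 fell, 4 rose and 7 were not called; with OSR1, GATA3 and PAX2, EYA1 (-0.95) and CUBN (-0.93) fell, and SALL1 (0.23) rose. Of 25 tested neuronal genes, 12 fell, 4 rose and 9 were not called, and GAP43 (-2.15 ± 0.29) and the tubulin TUBB3 (-1.51) fell, whereas STMN2 rose (2.08).

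Of 22 tested mesenchymal genes, 14 fell, 3 rose and 5 were not called (median -0.56). Besides MFAP2, the matrix protein TNC (-1.15 ± 0.13), the transcription factors PRRX1 (-1.13 ± 0.17), ZEB1 (-0.59), ZEB2 (-0.53) and TWIST1 (-0.53), and the cadherin CDH2 (-0.60) fell, and the fibrillins FBN1 (0.70) and FBN2 (0.25) rose. Of 26 tested epithelial genes, 7 fell, 5 rose and 14 were not called. The splicing regulator ESRP1 fell (-2.53 ± 0.55), with 19 counts over the knockout libraries and 128 over the WT libraries. CLDN1 (-1.72 ± 0.38) fell and the membrane proteases ST14 (1.18 ± 0.47) and its inhibitors SPINT1 (0.64) and SPINT2 (0.84) rose, but CLDN1 and ST14 overlapped between the groups and were under 1 CPM in all libraries but 1. The ST14 call was lost without MIR210HG-KO 1 or 3 or WT 1, 2 or 4, where its lowest value was 0.92, without WT 4.

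Interferon-stimulated genes were mostly near the detection limit. Of 42, 30 were tested, 9 fell, 6 rose and 15 were not called. OAS3 (-1.70 ± 0.42), IFIT3 (-1.36 ± 0.48), which overlaps LIPA, and SAMD9 (1.13 ± 0.36) changed the most, all at mean levels under 1 CPM in either genotype. IFIT3 was not called without MIR210HG-KO 1 (-1.21), MIR210HG-KO 4 (-1.21) or WT 1 (-1.12), nor SAMD9 without MIR210HG-KO 2 (0.84). Of 17 genes of antigen presentation, 7 rose, 2 fell and 8 were not called. HLA-C (0.28), B2M (0.30) and TAPBPL (0.63 ± 0.19), which overlaps CD27 and VAMP1, rose, and the peptide transporter TAP2, at 12.6 ± 1.09 CPM in MIR210HG-KO cells and 23.3 ± 2.19 CPM in WT cells (-0.88 ± 0.07), and the transactivator NLRC5 (-0.99 ± 0.28) fell. The NLRC5 call was lost when only the groups compared were fitted (-0.95, adjusted p = 0.0548). Of the 4 blood and endothelial markers that were tested, 2 rose, 1 of them at least 2-fold, and 2, CD14 and KDR, were not called. The smaller of the 2 rises was of CLDN5 (0.80 ± 0.34, adjusted p = 0.0476), with overlap between the groups. The CLDN5 call was lost without MIR210HG-KO 3 or 4 or WT 1, 2 or 3, with 0.39 as the lowest value, without MIR210HG-KO 4.

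In the cell cycle lists, mitotic genes rose more often than they fell. Of 57 genes of G2 and M phase, 24 rose, 5 fell and 28 were not called (median 0.04). In normoxia 35 rose and 4 fell (median 0.24), and the interaction was called lower for 17 and higher for 8. ASPM, a spindle pole protein, was at 364, 370, 354 and 347 CPM in the MIR210HG-KO libraries, against 175, 219, 131 and 208 CPM in the WT libraries (0.97 ± 0.10, adjusted p = 6.97e-10). CENPF (0.85 ± 0.07) and CENPI (0.82 ± 0.07), both of the kinetochore, and the proliferation marker MKI67 (0.77) rose, whereas the kinase AURKB (-0.64) and the kinetochore genes NDC80 (-0.30) and NUF2 (-0.24) fell. For ASPM, WT 1 and 3 gave the lower WT values. Of 47 genes of S phase, 13 rose, 14 fell and 20 were not called; with WT 1 and 3 left out, 21 rose and 13 fell. CLSPN (0.67 ± 0.08), POLE2 (0.64 ± 0.08) and the cyclin CCNE2 (0.64 ± 0.07), which overlaps INTS8 and NDUFAF6, rose, and the licensing factors MCM10 (-0.61), CDT1 (-0.59) and CDC6 (-0.52) fell. Of 21 tested replication-dependent histone genes, 10 rose, 1 fell and 10 were not called (median 0.67). In normoxia 15 rose and 0 fell (median 1.05), and the interaction was called lower for 7 and higher for 0. HIST1H3E was at 4.87 ± 1.06 CPM in MIR210HG-KO cells and 2.13 ± 0.297 CPM in WT cells (1.19 ± 0.16), and HIST1H2BC (1.08 ± 0.37), whose call was lost without MIR210HG-KO 3 (0.83), and HIST2H2AC (0.93 ± 0.27) rose at mean levels below 2 CPM. Most histone messages lack a poly(A) tail, so their counts depend on how RNA was selected.

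The lists of ribosomal protein, complex I and proteasome genes depended on the split between WT libraries. Of 77 ribosomal protein genes, 39 fell, 1 rose and 37 were not called (median -0.19); with WT 1 and 3 left out, 9 fell and 12 rose. RPS6 was at 1065, 1149, 1046 and 1058 CPM in the MIR210HG-KO libraries, against 1695, 1492, 1988 and 1431 CPM in the WT libraries (-0.61 ± 0.08, adjusted p = 8.30e-08), and RPLP0 fell by 0.46 ± 0.07 and RPS10 by 0.50 ± 0.12 on the log2 scale. WT 1 and 3 held the higher RPS6 values, but WT 2 and 4 also exceeded the knockout libraries. Of 38 nuclear subunits of complex I, 9 rose and 8 fell, and 17 rose and 4 fell without WT 1 and 3. NDUFB1 (0.75 ± 0.08) and NDUFC2 (0.64 ± 0.12) rose, and NDUFV2 (-1.21 ± 0.30), counted at under 3 CPM and overlapping AP005899.1 and NDUFV2-AS1, fell with overlap between the groups. Of 39 proteasome genes, 15 rose and 10 fell, and 22 rose and 3 fell without WT 1 and 3. PSMD5, which overlaps CUTALP, was at 15.9 ± 0.677 CPM in MIR210HG-KO cells and 4.53 ± 0.793 CPM in WT cells (1.81 ± 0.10), PSMA3, which overlaps PSMA3-AS1 and ARMH4, rose by 0.49 ± 0.07, and PSMG3 fell by 0.85 ± 0.07. Of 13 protein genes of the mitochondrial genome, 3 rose, 3 fell and 7 were not called. MT-CYB was at 776, 625, 735 and 698 CPM in the MIR210HG-KO libraries, against 429, 363, 408 and 323 CPM in the WT libraries (0.90 ± 0.08, adjusted p = 1.20e-10), MT-ND2 rose by 0.55 ± 0.08, and MT-ND6 (-0.54 ± 0.10) and MT-CO1 (-0.43 ± 0.06) fell.

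**Figure D4:**
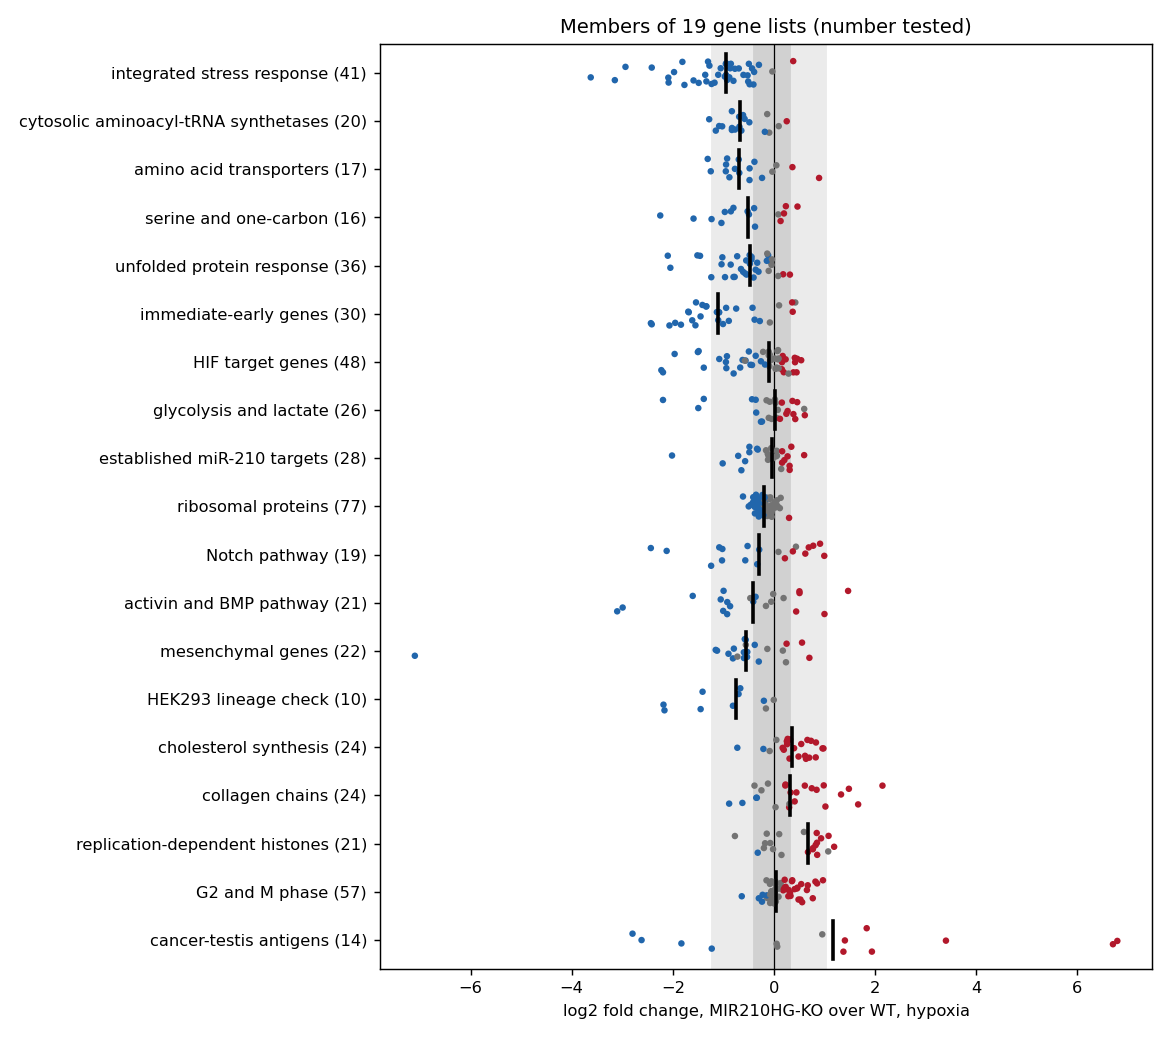
Each point is a tested member of 1 of 19 gene lists, placed by its log2 fold change of MIR210HG-KO over WT in hypoxia (red called higher, blue called lower, grey not called); black bars are list medians, and the shaded bands show the spread of all tested genes. The integrated stress response and immediate-early lists have medians of -0.95 and -1.12, and the cholesterol and collagen lists lie to the right, at 0.36 and 0.32.

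In CPM, the largest gains were of HSP90AA1, AMOT, NUCKS1, ACTB and PKM. HSP90AA1 was at 2889, 2610, 2636 and 2666 CPM in the MIR210HG-KO libraries, against 1531, 1462, 1581 and 1338 CPM in the WT libraries (adjusted p = 8.55e-14). AMOT, a regulator of the Hippo pathway, was at 1526 ± 60.6 CPM in MIR210HG-KO cells and 815 ± 85.4 CPM in WT cells (0.90 ± 0.06), NUCKS1 at 1714 ± 46.7 CPM and 1162 ± 75.3 CPM (0.56 ± 0.06), and beta-actin, ACTB, at 1367 ± 73.7 CPM and 817 ± 87.2 CPM (0.74 ± 0.07), each in the same order. The largest losses were of the elongation factor EEF2, MT-CO1, HSPA5, the elongation factor EEF1A1 and JUN. EEF2 was at 3359, 3391, 3729 and 3430 CPM in the MIR210HG-KO libraries, against 6027, 5392, 6116 and 5657 CPM in the WT libraries (-0.74 ± 0.07, adjusted p = 2.04e-10). EEF1A1, at 9352 ± 220 CPM in MIR210HG-KO cells and 10646 ± 1159 CPM in WT cells, changed little (-0.19 ± 0.05). It was not called with WT 3 left out (-0.10, adjusted p = 0.0647) or when the hypoxia libraries were fitted alone (-0.15).

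Over all tested genes, 3107 were higher (15.6%) and 3912 lower (19.6%) in MIR210HG-KO than in WT cells in normoxia, 257 (1.29%) and 884 (4.43%) of them by at least 2-fold. Of the 4861 genes higher in hypoxia, 2114 were also higher in normoxia, 113 were lower and 2634 were not called, with a median log2 fold change of 0.51 in hypoxia and 0.22 in normoxia. Of the 6025 genes lower in hypoxia, 2899 were also lower in normoxia, 174 were higher and 2952 were not called, with medians of -0.54 and -0.27. The difference itself was called for 4486 genes, 2045 toward higher in hypoxia (10.2%) and 2441 toward lower (12.2%), 304 (1.52%) and 207 (1.04%) of them by at least 2-fold. With upper quartile scaling the split was 2545 and 2018, so the balance of the 2 directions depends on the scaling.

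The 6 lowest interactions were of C11orf96, PCK1, HSPA5, ARC, GADD45B and HMOX1. C11orf96 was at 5.31, 5.07, 4.62 and 5.37 CPM in the MIR210HG-KO hypoxia libraries, against 35.3, 24.3, 38.2 and 31.1 CPM in the WT hypoxia libraries, and at 3.77 ± 0.737 CPM in MIR210HG-KO cells and 3.69 ± 1.04 CPM in WT cells in normoxia (interaction -2.70). GADD45B, a stress-induced signalling gene, was at 6.54 ± 0.283 CPM in MIR210HG-KO cells and 37.98 ± 5.92 CPM in WT cells in hypoxia, and at 6.46 ± 0.974 CPM and 9.55 ± 0.859 CPM in normoxia (interaction -1.97). For both genes only the hypoxic WT libraries stood high. PCK1 was at 1.57 ± 0.337 CPM in MIR210HG-KO cells and 13.7 ± 2.44 CPM in WT cells in hypoxia (interaction -2.26). The 6 highest were of CPNE7, CHAC1, CYBA, AMPD3, STC1 and DOK3. AMPD3, AMP deaminase, did not differ beyond its spread in hypoxia, at 7.44 ± 0.271 CPM in MIR210HG-KO cells and 7.38 ± 1.12 CPM in WT cells (adjusted p = 0.970), but was at 0.581 ± 0.0104 CPM and 2.06 ± 0.374 CPM in normoxia (interaction 1.82). CYBA, a subunit of NADPH oxidase, was at 0.650 ± 0.142 CPM in MIR210HG-KO cells and 1.90 ± 0.355 CPM in WT cells in hypoxia, and at 0.504 ± 0.0534 CPM and 6.23 ± 0.602 CPM in normoxia (interaction 2.09). CPNE7, a copine, had 20 counts over the knockout libraries and 572 over the WT libraries in hypoxia, and 1 and 946 in normoxia, where the ratio of WT to knockout was 909 in CPM with a 95% counting interval of 163 to 35930. Its interaction of 4.67 rests on that single count.

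MIR210HG-KO cells were also set against the hypoxia libraries labelled MIR210-KO; this comparison shares the 4 MIR210HG-KO libraries with the main one, so values are given side by side. MIR210, the gene named in that label, had 0 counts in each MIR210HG-KO library, 11, 6, 6 and 10 counts in the libraries labelled MIR210-KO, and 14, 8, 2 and 6 counts in the WT libraries. The libraries labelled MIR210-KO thus held as many reads of MIR210 as the WT libraries did, within their spread. These counts show no loss of such reads but cannot check the label, since reads of the hairpin can come from the host transcript. The labels do not say which bases were edited, and whether mature miR-210 was lost there was not measured. MIR210HG was also read there, at 20.7 ± 1.46 CPM in the libraries labelled MIR210-KO and 19.1 ± 1.72 CPM in WT libraries. The comparison called 5194 genes higher (26%) and 5794 lower (29%) in MIR210HG-KO than in libraries labelled MIR210-KO, 674 (3.38%) and 2019 (10.1%) of them by at least 2-fold. Of the 36 genes of the unfolded protein response, 25 were higher and 3 lower in MIR210HG-KO than in libraries labelled MIR210-KO (median 0.32). HSPA5 was at 537 ± 21.3 CPM in MIR210HG-KO cells, against 323 ± 6.36 CPM in libraries labelled MIR210-KO and 2225 ± 233 CPM in WT cells. Of 24 cholesterol genes, 22 were higher and 0 lower than in libraries labelled MIR210-KO (median 0.77). MAGEA12 was at 36.7 ± 1.93 CPM in MIR210HG-KO cells, 0.0540 ± 0.0576 CPM in libraries labelled MIR210-KO and 0.330 ± 0.109 CPM in WT cells. HSPA5 was thus lower than in WT cells both in MIR210HG-KO libraries and in those labelled MIR210-KO, whereas the higher level of MAGEA12 was seen in MIR210HG-KO libraries and not in those labelled MIR210-KO. JUN was at 569 ± 34.1 CPM in MIR210HG-KO cells, 716 ± 60.0 CPM in libraries labelled MIR210-KO and 1670 ± 135 CPM in WT cells, and NDRG1 at 177 ± 7.07 CPM, 214 ± 12.4 CPM and 693 ± 23.1 CPM in the same order.

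Changes also clustered along chromosomes. Genes were grouped in 298 windows of 10 Mb with at least 10 tested genes; the median log2 fold change exceeded 0.3 in 13 and lay below -0.3 in 23. The lowest window lay at 70 to 80 Mb of chromosome 13, where 27 of 28 tested genes fell and the median was -1.09, with -0.89 in normoxia. Other low windows lay on chromosome 4 from 150 to 190 Mb (-0.81 at 180 to 190 Mb), chromosome 18 from 20 to 40 Mb (-0.78 at 30 to 40 Mb), chromosome 10 from 0 to 20 Mb (-0.75 at 10 to 20 Mb), chromosome 7 from 140 to 160 Mb (-0.75 at 140 to 150 Mb, which holds TMEM178B) and chromosome 9 between 0 and 70 Mb (-0.73 at 40 to 50 Mb). Genes described above that lie in these low windows include ANKRD37 and ACSL1 (chromosome 4, 180 to 190 Mb) and GATA3 (chromosome 10, 0 to 10 Mb, median -0.50). VIM, CUBN and MCM10 lie at 10 to 20 Mb of chromosome 10 (median -0.75). INSIG1 lies at 150 to 160 Mb of chromosome 7 (median -0.74) and CDH2 at 20 to 30 Mb of chromosome 18 (median -0.48). On chromosome 9, GLDC and VLDLR-AS1 lie at 0 to 10 Mb (median -0.62) and RPS6 at 10 to 20 Mb (median -0.46). The highest window lay at 110 to 120 Mb of chromosome 13 (0.44), which holds COL4A1 and COL4A2. On chromosome 14, 54.2% of 653 tested genes were higher and 7.81% lower, with a median of 0.36 in hypoxia and 0.40 in normoxia. HIF1A, HSP90AA1, POLE2, PSMA3, NDUFB1, EGLN3, BMP4, SEL1L and MTHFD1 lie there. Changes of DNA copy number were not measured. Their part in these window values, or in the changes of single genes within them such as HIF1A, was not tested.

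**Figure D5:**
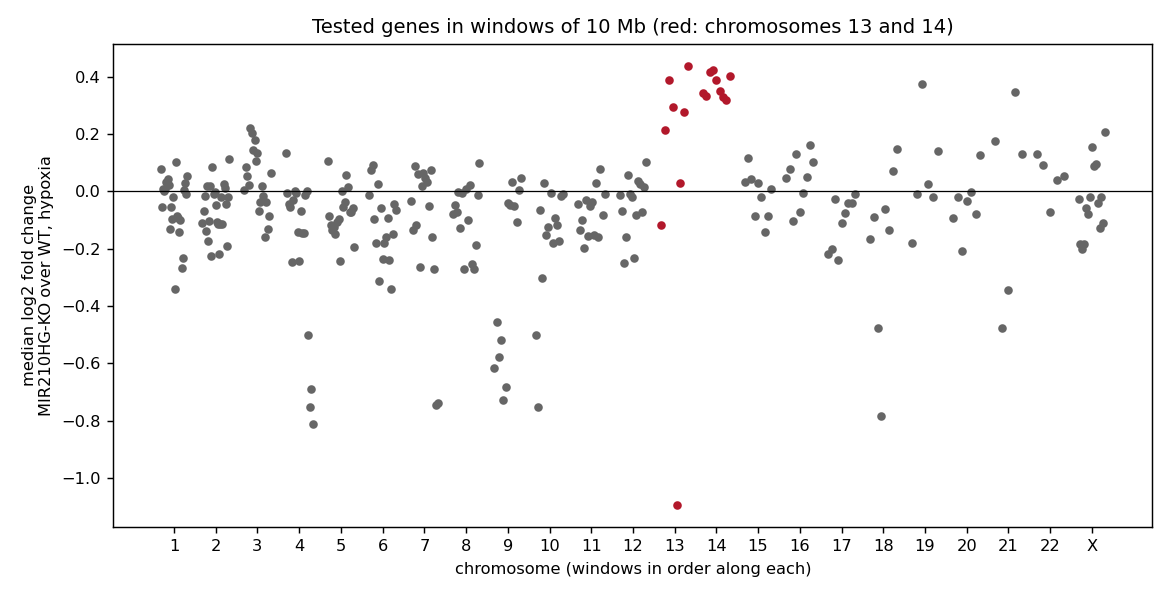
Each point is the median log2 fold change of MIR210HG-KO over WT in hypoxia of the tested genes in a 10 Mb window, with windows in order along each chromosome. Windows of chromosome 14 lie above 0.3, and runs of low windows stand out on chromosomes 4, 7, 9, 10, 13 and 18, the lowest at -1.09 on chromosome 13.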

How the data were processed

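Reads were aligned with STAR 2.6.1d to GRCh38 and counted with featureCounts 1.5.0-p3, per the submitters' processing notes; strand setting and annotation release are not given in the sources used here. The authors deposited whole-number read counts for 58735 genes in one table per oxygen level, and only these counts were used. DESeq2 1.20.0 and edgeR 3.24.3 are also named in the notes. Groups came from the labels. All 24 libraries (6 groups) were fitted in one model with edgeR 4.0.16 (R 4.3.3), with TMM factors, filterByExpr (19952 genes kept) and the quasi-likelihood F test; adjusted p-values are Benjamini-Hochberg values over all tested genes, with a threshold of 0.05, and the standard error is the log2 fold change divided by the square root of F. The interaction is the hypoxia minus the normoxia difference. Library measures were compared by exact two-sided permutation tests. Intervals on counts are exact 95% binomial intervals and cover counting error only.

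Named genes were MIR210HG and MIR210; 12 protein-coding and 4 long non-coding RNA genes at each end of the log2 fold changes, taken from called genes whose groups did not overlap and whose higher mean reached 5 CPM; the 5 largest gains and losses in CPM; the 3 largest changes among called members of each list; the 6 highest and lowest interactions; and 12 genes chosen for their role. Other list members are given as examples, chosen after their values were seen. The members and lists were chosen with earlier results of these data known. A gene is said to overlap another where a gene sharing its annotated span had at least 10% of its counts. Promoters and microRNAs came from RefSeq (GRCh38.p14) and untranslated regions from GENCODE release 29. The procedure was tested on simulated counts for this comparison (13496 genes, 50 changed per size): 54% of genes changed 1.25-fold, 76% of those changed 1.5-fold and 100% of those changed 2-fold were found, and 2.37% of calls were false. The simulation drew libraries independently and had no split of WT 1 and 3 from WT 2 and 4. It also left out genes with low WT levels and changed far fewer genes than the 54.6% called in the data. Its share of false calls therefore need not hold for the data. Alternatives were DESeq2 1.42.0, other scaling and filters, fits of fewer groups, a length covariate, a replicate block, leaving out each library, and leaving out WT 1 and 3. Results for some genes that met these rules are not reported here.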

Additional observations from a re-analysis of the deposited data

Results flagged for a closer look

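In 13 of 308 groups of 4 libraries, 1 library lay apart from the other 3 by a gap above Dixon's 95% critical value; chance gives about 1 in 20. In MIR210HG-KO libraries these were CALCB in library 4 (3.879 CPM), JUN in library 1 (518.1 CPM), SLC2A3 in library 3 (20.92 CPM), SAMD9 in library 2 (1.049 CPM), POLE2 in library 1 (31.61 CPM), INHBA in library 2 (3.426 CPM), COL4A2 in library 3 (168.2 CPM) and BNIP3 in library 2 (359.3 CPM). In WT libraries they were ZNF682 in library 4 (0.4041 CPM), RUNX3 in library 4 (3.96 CPM), INHBE in library 3 (13.38 CPM), GLDC in library 3 (38.11 CPM) and SLC43A1 in library 2 (48.77 CPM). None of these libraries crossed into the range of the other genotype.

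The difference between MIR210HG-KO and WT cells differed between hypoxia and normoxia by the interaction test for 2045 genes toward higher and 2441 toward lower. Among the genes named, the log2 difference was lower in hypoxia for C11orf96 (-2.698), PCK1 (-2.26), HSPA5 (-2.088), ARC (-2.048), GADD45B (-1.971), HMOX1 (-1.97), NDRG1 (-1.355), DDIT3 (-0.8153) and VEGFA (-0.3758). It was higher in hypoxia for BNIP3 (0.3873), NPTX1 (0.8553), DOK3 (1.578), STC1 (1.644), AMPD3 (1.821), CYBA (2.087), CHAC1 (2.273) and CPNE7 (4.674), the last resting on 1 count in the normoxia knockout libraries.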

How the results depend on the processing

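Counts of called genes stayed within 1.5 times of the reported ones in every alternative run. Leaving out 1 library gave 4571 to 4836 genes higher and 5508 to 6047 lower in hypoxia, and 1736 to 2324 and 2100 to 2756 in the interaction. Of the values of single genes under all alternatives, 2774 kept direction and call, 49 lost the call and 13 changed sign; of the counts for lists, 93 moved by more than 1.5 times and 1237 did not. The sign changes were all of genes without a call. ISCU was at 0.00365 with any gene counted at least once, 0.0112 with only the groups compared, 0.0113 with only the hypoxia libraries, 0.0730 without WT 1 and 3 and 0.0246 with a length covariate, and from -0.0808 to 0.0282 with 1 library left out. AMPD3 was at -0.1345 without WT 1 and 3, -0.0827 with the covariate and from -0.0882 to 0.0817 with 1 library left out, and EFNA3 was at 0.0309 without WT 1 and 3. Without WT 1 and 3 the difference in long non-coding RNA share was -0.165 percentage points, in ribosomal protein share 0.166 and in length balance -0.0705 (log2), each against the reported direction; the cause was not tested. The mitochondrial share was then -0.366 and the ribosomal RNA share -0.317 percentage points, with an exact permutation p of 0.133, the smallest that 4 against 2 allows; with 1 library left out they ran from -0.640 to -0.472 and from -0.386 to -0.342. With 8-base seed sites only, the median was 0.146.

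The replicate numbers do not pair the libraries: deviations of same-numbered libraries correlated at -0.0281, -0.0789, 0.0876 and 0.0244. With the replicate block, 4885 genes were higher and 5989 lower in hypoxia and 2083 and 2418 in the interaction, and NPTX1 alone among the named genes lost its call. Low-count genes are limited by depth, and oxygen level and deposited table cannot be told apart.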
